A study of Homo sapiens with 32 samples.

Results

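The 9 genes APOA1, APOA2, APOA4, APOA5, APOB, APOC3, APOH, APOM and MTTP encode apolipoproteins and the transfer protein that loads lipid onto APOB. Binding of the transcription factor HNF4α around them was taken from 18 peak lists of chromatin immunoprecipitation sequencing (ChIP-seq). A peak was counted when its summit lay within 50 kb of the span of 1 of these genes on GRCh38. Of 337294 peaks in all lists, 182 met this rule. They lay at 6 loci, because APOA1, APOC3, APOA4 and APOA5 share a cluster on chromosome 11, and the 9 genes were 9 of 20037 protein-coding genes of the annotation.

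The cells were 3 established human lines of pancreatic ductal adenocarcinoma. Panc10.05 and BxPC3 carried doxycycline-inducible HNF4α of the P1-α2 or the P2-α8 isoform. In Panc10.05 the P1-α2 cells received 25 ng/mL doxycycline and the P2-α8 cells 12.5 ng/mL, and all BxPC3 cells received 500 ng/mL. ASPC1 expresses its own HNF4α and carried CRISPR interference with a control guide (sgNC), a guide against the P1 promoter (sgP1) or a guide against the P2 promoter (sgP2). An antibody to all HNF4α isoforms, called pan here, was used in these 7 groups, and an antibody to P1 isoforms was also used in ASPC1 with sgNC and with sgP2. Each of the 9 groups had 2 replicate lists, and the labels do not say whether replicates were independent cultures, so p-values measure the spread between these lists, which may be technical. No list of uninduced Panc10.05 or BxPC3 cells was analysed here. Induced levels are set by the transgene and the doxycycline dose, and in Panc10.05 isoform and dose cannot be told apart.

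HNF4α is a nuclear receptor that binds DNA as a homodimer. Its gene has 2 promoters: P1 isoforms are typical of adult liver and P2 isoforms of pancreas, stomach and fetal liver. In hepatocytes and enterocytes HNF4α is a known activator of many lipoprotein genes. APOB is the scaffold of very low density lipoproteins and chylomicrons, MTTP lipidates it in the endoplasmic reticulum, APOA1 and APOA2 are the main proteins of high density lipoprotein, and APOC3 and APOA5 have opposite effects on the clearance of triglyceride.

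The pan lists held between 11686 and 41808 peaks, and the P1 antibody lists held 260 to 5200. Sequencing depth is not in the lists. The lowest −log10 q was about 8 in the Panc10.05 and BxPC3 lists and about 2 in the ASPC1 lists, so a peak had to clear a stricter limit to enter the former. Fold enrichment, a linear ratio given by the authors for each peak, was used only within its own list. It is given here also as a percentile, the share of the list's peaks with a fold at or below that of the peak. Within 50 kb of HNF4A, the guides' target, the highest percentile in ASPC1 with the pan antibody was 91.0 and 91.5 with sgNC and 86.0 and 82.4 with sgP1. With sgP2 there was no peak there in replicate 1 and the highest percentile was 9.65 in replicate 2. These are peaks near the gene and do not measure its expression.

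Promoter sequence was at hand for 6 of the 9 genes, in 8 windows that run from 250 bases before to 50 bases after a start site (RefSeq, GRCh38.p14). The bases before the start are shown for the promoters that hold an HNF4 core string or are touched by a peak, because they put letters beside the binding described further on. Capitals mark AAAGTCCA or AAAGGTCA on either strand. Each run reads 5′ to 3′ along the gene. The APOA4 sequence is chr11:116823305-116823554, minus strand. The APOA5 sequence is chr11:116792421-116792670, minus strand, and the MTTP sequence, before the inner of its 2 start sites, is chr4:99574574-99574823, plus strand. For APOM, 30 bases around the median summit of the 4 peaks on its promoter are given, chr6:31655738-31655767, plus strand.
APOA4 promoter: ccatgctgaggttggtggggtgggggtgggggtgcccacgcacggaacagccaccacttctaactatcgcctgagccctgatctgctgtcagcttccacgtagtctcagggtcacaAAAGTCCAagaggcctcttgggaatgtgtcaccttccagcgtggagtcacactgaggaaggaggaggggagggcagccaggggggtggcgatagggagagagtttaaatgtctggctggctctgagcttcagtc
APOA5 promoter: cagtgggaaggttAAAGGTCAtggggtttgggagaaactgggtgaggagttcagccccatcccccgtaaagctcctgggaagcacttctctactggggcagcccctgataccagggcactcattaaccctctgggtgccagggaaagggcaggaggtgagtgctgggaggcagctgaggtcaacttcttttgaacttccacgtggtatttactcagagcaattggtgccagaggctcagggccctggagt
MTTP inner promoter: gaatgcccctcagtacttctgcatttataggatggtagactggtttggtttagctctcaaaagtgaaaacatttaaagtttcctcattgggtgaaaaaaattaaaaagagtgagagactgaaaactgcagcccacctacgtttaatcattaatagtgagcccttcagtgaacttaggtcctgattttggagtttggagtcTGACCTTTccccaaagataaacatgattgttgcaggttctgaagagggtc
APOM summit: ctggacatgccagggtgtactatggagtgg

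The core AAAGTCCA began at position -134 from the APOA4 start and was in 1.14% of all 35116 promoter windows. AAAGGTCA began at -237 from the APOA5 start and, on the opposite strand, at -50 from the inner MTTP start, and was in 1.22% of windows. AAAGTTCA was in none of the 8 windows of these genes and in 1.01% of all windows. These 8-letter strings were chosen after the sequences were seen. The longer strings CAAAGTCCA, CAAAGTTCA and CAAAGGTCA, each of which contains 1 of the 8-letter strings, were in 0 of the 8 windows, and 1.08% of all windows held at least 1 of them. Other strings were searched on both strands too. TGTTTAC, of forkhead factors, was in 1 of 8 windows against 3.42% of all. AGATAA, which factors of the GATA family bind, was in 3 of 8 against 10.3%, and TGACTCA, of AP-1, in 2 of 8 against 4.95%. A match is a description of letters. Of the 3 promoters with a core string, peaks touched that of APOA4 and none touched those of APOA5 and MTTP.

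In the induced lines the loci were occupied most in both Panc10.05 groups and in BxPC3 with P1-α2. With P1-α2, Panc10.05 had 19 and 21 peaks at the 6 loci. With P2-α8 it had 24 and 20. BxPC3 had 23 and 22 peaks with P1-α2 but 4 and 7 with P2-α8, so that the isoforms did not overlap in BxPC3 and did overlap in Panc10.05. ASPC1 had 10 and 6 peaks with sgNC, 6 and 8 with sgP1, and 6 and 6 with sgP2, all with the pan antibody. The P1 antibody lists had 0 peaks at the loci in all 4 cases.

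**Figure D1:**
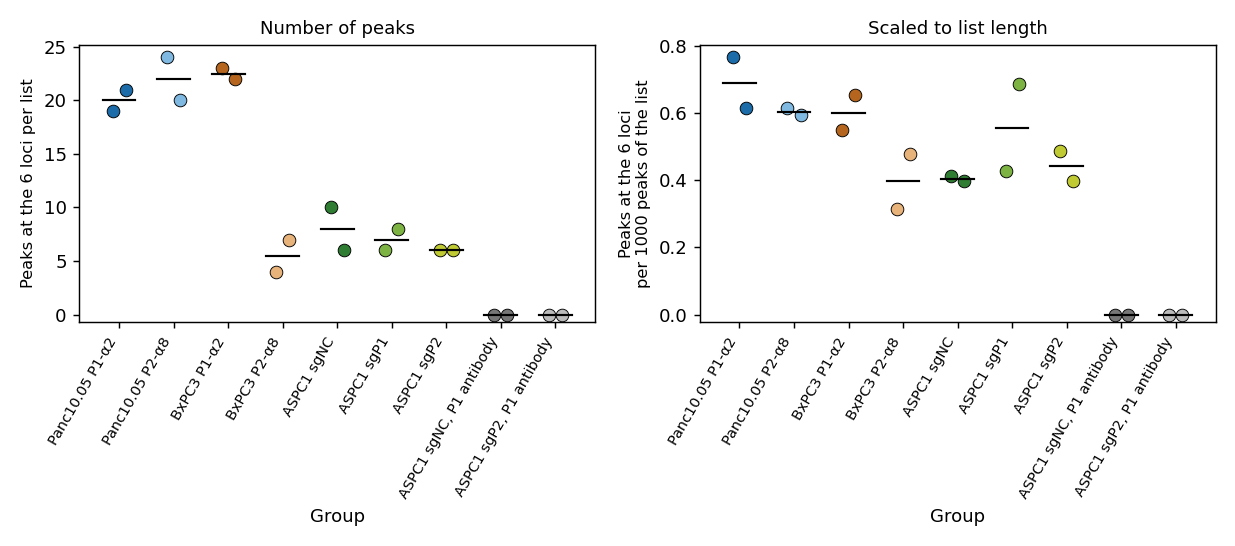
Peaks with a summit within 50 kb of the 9 genes, per list. Left, number of peaks; right, number per 1000 peaks of the list; points are the 2 replicate lists of each group and bars their mean. BxPC3 with P2-α8 stands at 4 and 7 peaks against 23 and 22 with P1-α2, and the gap is smaller once scaled to list length.

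In BxPC3 the mean was 22.5 ± 0.707 peaks with P1-α2 and 5.50 ± 2.12 with P2-α8 (SD, n = 2 lists each), a difference of 17.0 (two-sided exact permutation p = 0.333, adjusted p = 0.743 over 10 comparisons). With 2 lists against 2, 0.333 is the smallest p that can occur. List length moved with this result: the BxPC3 lists held 41808 and 33737 peaks with P1-α2 and 12681 and 14666 with P2-α8. Per 1000 peaks the loci took 0.601 ± 0.0721 with P1-α2 and 0.396 ± 0.114 with P2-α8, a difference of 0.205. When the 4 lists were held to the 12681 peaks of highest fold, the counts were 8 and 10 with P1-α2 and 4 and 7 with P2-α8, and the difference fell to 3.50.

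In Panc10.05 the mean was 20 ± 1.41 peaks with P1-α2 and 22 ± 2.83 with P2-α8 (SD, n = 2 lists each), a difference of -2.00 (exact permutation p = 0.667, adjusted p = 1.00). Its direction turned when scaled: per 1000 peaks, P1-α2 stood at 0.690 ± 0.106 and P2-α8 at 0.604 ± 0.0136. The effect of the isoform was 19.0 peaks larger in BxPC3 than in Panc10.05 (exact permutation p = 0.111 over 36 labellings within lines, smallest possible 0.0556), and 0.119 larger per 1000 peaks (p = 0.500 by the same exact test). Over both lines, P1-α2 lists had 21.25 ± 1.71 peaks and P2-α8 lists 13.75 ± 9.74 (SD, n = 4 lists each), a difference of 7.50 that the exact permutation test within lines did not separate (p = 0.278, adjusted p = 0.743). It was 4.25 without the first BxPC3 list with P2-α8 and 2.00 at equal list length. Per 1000 peaks, P1-α2 lists stood at 0.646 ± 0.0902 and P2-α8 lists at 0.500 ± 0.137. That scaled difference was 0.145 (exact permutation p = 0.0556 within lines, not adjusted, the smallest possible there). Panc10.05 lists had 21 ± 2.16 peaks and BxPC3 lists 14 ± 9.90 (SD, n = 4 lists each), a difference of 7 (exact permutation p = 0.371, adjusted p = 0.743). Without the APOM locus, an alternative chosen after the data were seen, that difference was 1.5. It was 3.67 without the first BxPC3 list with P2-α8, 4.67 without the second, and 3.50 at equal list length. The leading number of the library names also differs between the lines, and what it stands for is not stated, so the line and whatever that number marks cannot be told apart.

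Peaks of different lists that overlapped by at least 1 bp were merged into 42 sites. A site is named here by the nearest of the 9 genes and the distance of its median summit from that gene's span, with a minus sign towards lower coordinates and a plus sign towards higher ones, and "inside" with the distance from the lower-coordinate end. Merging can join peaks with distant summits, so percentiles of different lists at a wide site may rank different peaks. Summits spread over 873 bp at APOM +7.3 kb, 747 bp at APOC3 -3.0 kb and 641 bp at APOM -38.0 kb. The spread was 560 bp at APOM +24.7 kb and 477 bp at APOA1 +5.5 kb. Of the 42 sites, 10 were in a single list. The nearest protein-coding gene was 1 of the 9 at 20 sites, so the rest stood closer to a neighbour. The induced lists held 40 sites and the ASPC1 pan lists 10, of which 8 were shared.

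**Figure D2:**
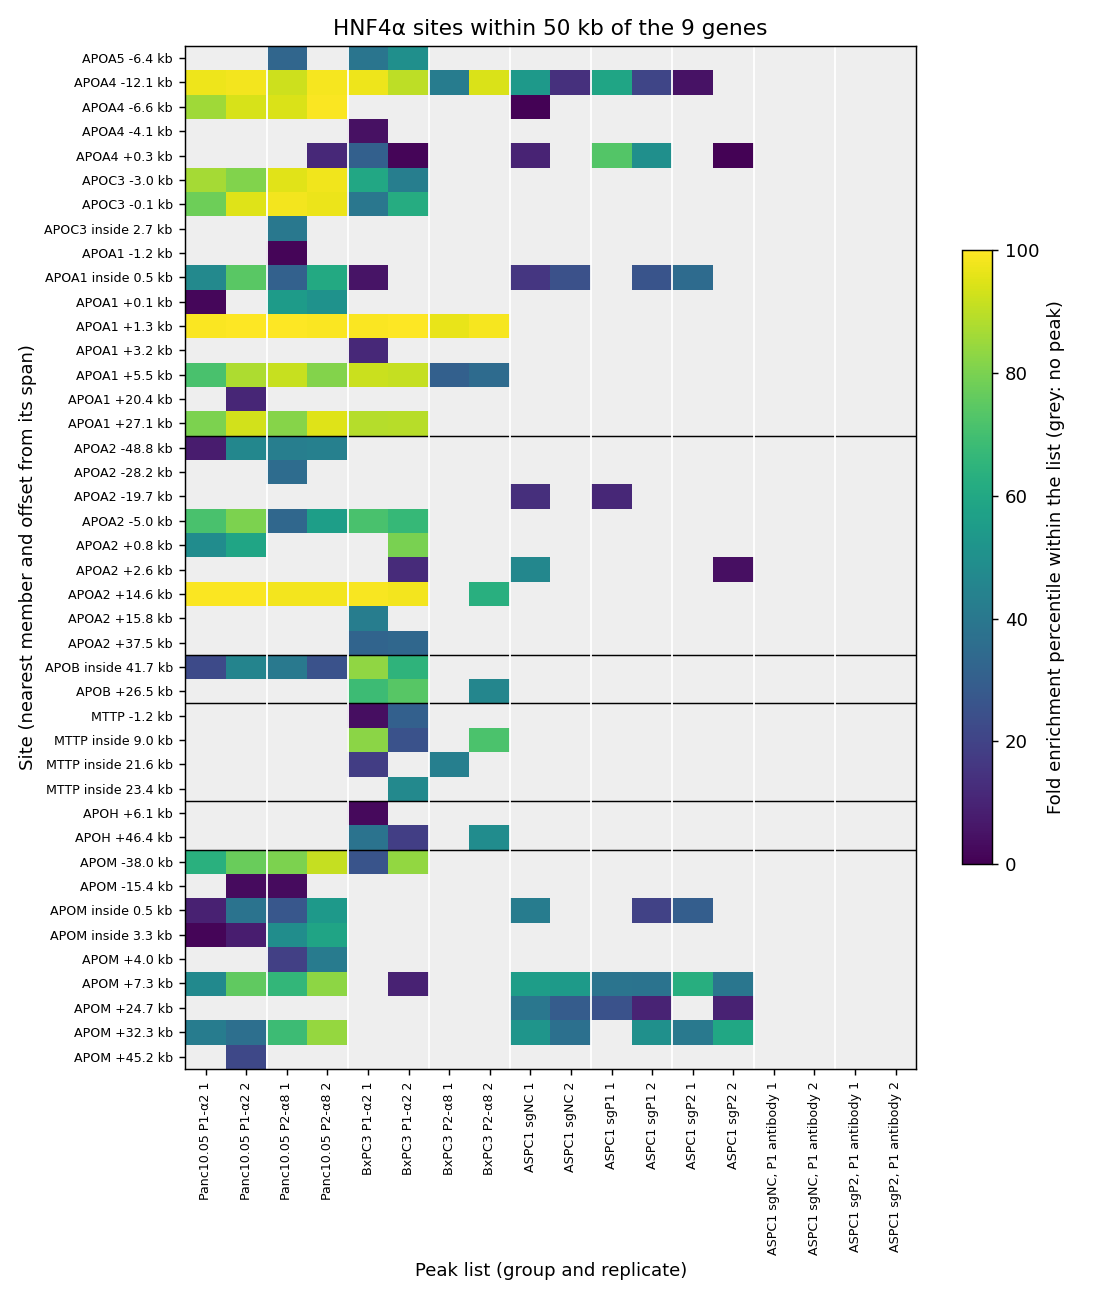
The 42 sites (rows, by locus and position) in the 18 lists (columns, by group and replicate), coloured by the percentile of the peak's fold enrichment within its list, grey where the list has no peak. The brightest rows across the 8 induced lists are APOA1 +1.3 kb and APOA4 -12.1 kb; the MTTP and APOH rows have peaks in BxPC3 alone.

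The chromosome 11 cluster carried 80 of the 182 peaks, more than each other locus, although in ASPC1 it had 14 against 24 at APOM. APOA1 (chr11:116835751-116837622), APOC3 (chr11:116829907-116833072), APOA4 (chr11:116820700-116823304) and APOA5 (chr11:116789367-116792420) together had 16 sites. Peaks per list numbered 9 and 9 in Panc10.05 with P1-α2 and 12 and 10 with P2-α8. In BxPC3 there were 11 and 9 with P1-α2 and 3 and 3 with P2-α8. The ASPC1 pan lists had 4 and 2 with sgNC, 2 and 3 with sgP1, and 2 and 1 with sgP2. The density was uncommon in Panc10.05 and in BxPC3 with P1-α2. APOA1, the structural protein of high density lipoprotein, had at least 9 peaks within 50 kb in each of the 4 Panc10.05 lists. So had 2.14% to 9.51% of protein-coding genes. In BxPC3 with P1-α2 APOA1 had 10 and 8 peaks, and 4.49% and 5.59% of protein-coding genes had as many or more.

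The strongest site of the cluster was APOA1 +1.3 kb (chr11:116838398-116839588), inside the span of the antisense gene APOA1-AS. It was in 8 of 8 induced lists, with summits within 21 bp of each other, and in 0 of 6 ASPC1 pan lists. In Panc10.05 its fold enrichment was 74.8 and 137 with P1-α2 and 59.7 and 49.2 with P2-α8. In BxPC3 it was 47.7 and 60.4 with P1-α2 and 21.1 and 20.3 with P2-α8. These folds placed it at percentiles 99.5, 99.9, 99.7 and 99.6 in Panc10.05, and at 99.6, 100.0 (rounded), 96.7 and 98.8 in BxPC3. The site was therefore near the top of its list also with P2-α8 in BxPC3, where most other sites of the cluster had no peak.

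A neighbour, APOA1 +5.5 kb (chr11:116842286-116843501), lay 309 bp from SIK3, a kinase gene, and was also in 8 of 8 induced lists and 0 of 6 ASPC1 pan lists. Its percentiles were 71.3, 87.8, 91.5 and 81.6 in Panc10.05, with P1-α2 first. In BxPC3 they were 92.1 and 91.1 with P1-α2 and 30.8 and 35.0 with P2-α8. These were the 2 sites of the 42 in every induced list and no ASPC1 pan list (4.76%), as were 2.45% of all 78074 merged regions. The reverse pattern was found at 0 of 42 sites, against 1.19% of all regions. The ASPC1 lists, which lack both sites, have the lower −log10 q limit.

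APOA4 -12.1 kb (chr11:116808131-116809282), between APOA5 and APOA4, was the site found in the most lists. It had a peak in 13 of the 14 pan lists, the exception being the second list with sgP2 in ASPC1. In Panc10.05 its percentiles were 97.4 and 98.1 with P1-α2 and 92.3 and 98.7 with P2-α8. In BxPC3 they were 97.4 and 90.1 with P1-α2 and 41.9 and 94.3 with P2-α8. In ASPC1 they were 54.2 and 13.7 with sgNC, 58.7 and 20.8 with sgP1, and 4.80 in the first list with sgP2. APOA4, an apolipoprotein made by enterocytes after a fatty meal, was the nearest protein-coding gene.

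**Figure D3:**
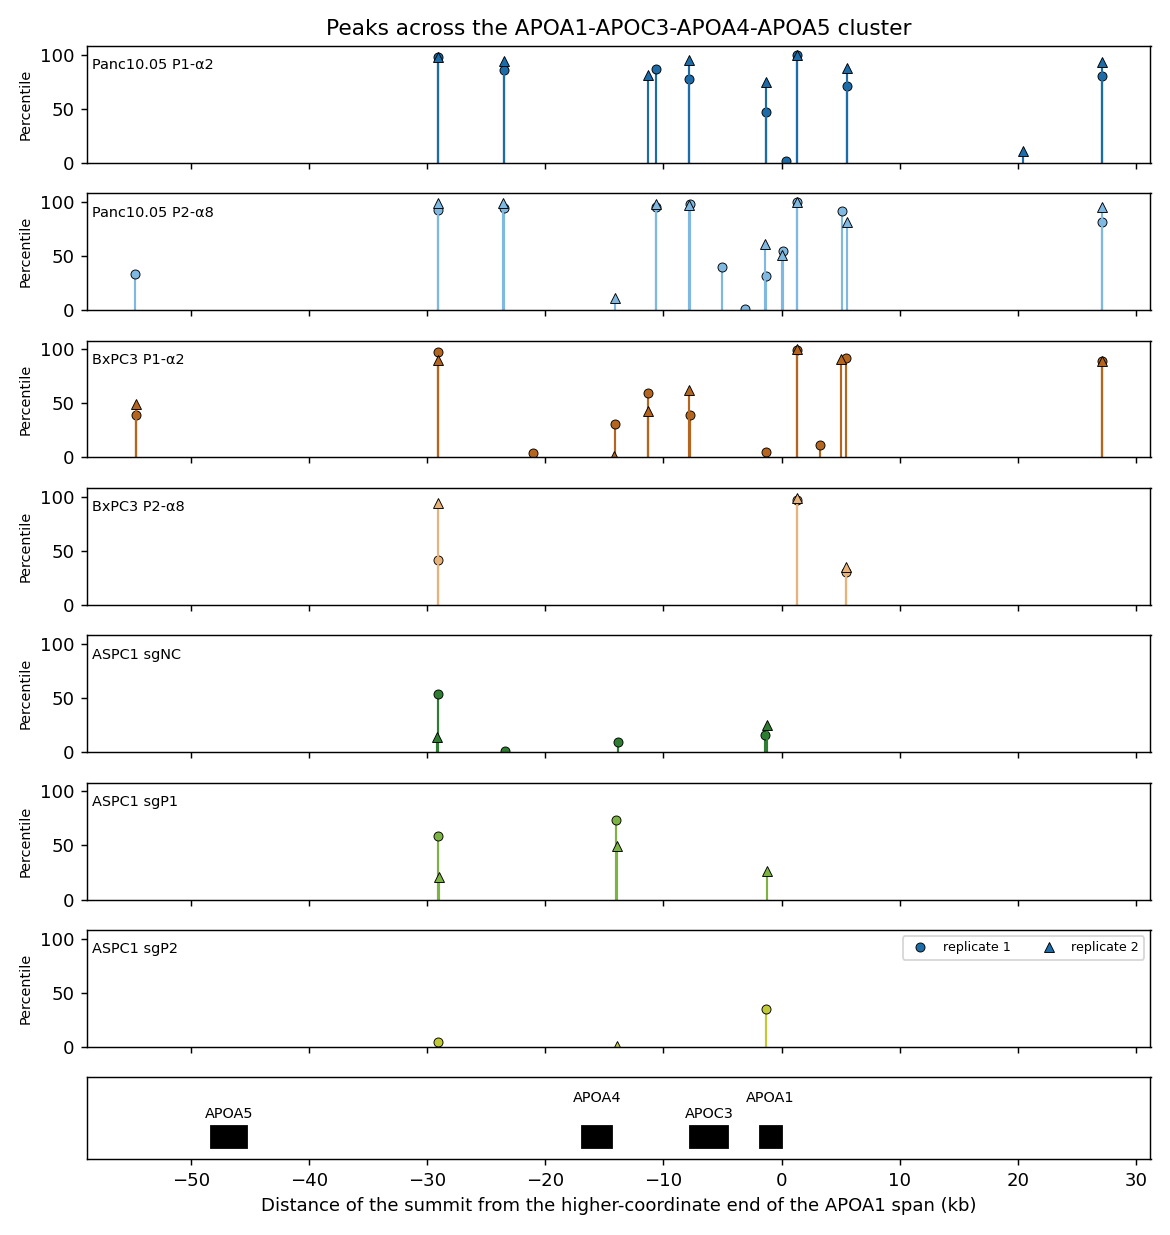
Peaks across the chromosome 11 cluster in the 7 pan antibody groups: distance of the summit from the higher-coordinate end of the APOA1 span (horizontal, kb) against the percentile of fold enrichment within the list (vertical), circles and triangles for replicates 1 and 2, black boxes for gene spans. The peak 1.3 kb beyond APOA1 is above percentile 96 in the 8 induced lists and has no counterpart in ASPC1.

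Both sites beside APOC3, which slows the clearance of triglyceride-rich particles, had peaks in both Panc10.05 groups, and in BxPC3 with P1-α2 alone. APOC3 -0.1 kb (chr11:116828815-116830183) had its median summit 92 bp outside the span. Its percentiles in Panc10.05 were 77.8 and 95.2 with P1-α2 and 98.2 and 97.2 with P2-α8. In BxPC3 they were 39.5 and 62.1 with P1-α2, and there was no peak with P2-α8. APOC3 -3.0 kb (chr11:116825878-116827803) had peaks in the same lists, at 86.5, 80.9, 95.4 and 97.9 in Panc10.05 and at 60 and 42.8 with P1-α2 in BxPC3. Its summits spread over 747 bp. Those of the second P1-α2 list in Panc10.05 (116826308) and of BxPC3 (116826277 and 116826316) stood apart. The other Panc10.05 summits lay at 116826957 to 116827024, so these percentiles may rank different peaks. Neither site had a peak in ASPC1. At both sites the Panc10.05 percentiles did not overlap and were higher with P2-α8, a rank within lists of different length. Other sites in all 4 Panc10.05 lists did not overlap either, in both directions. P2-α8 was higher at APOA4 -6.6 kb, APOM -38.0 kb, APOM inside 3.3 kb and APOM +32.3 kb. P1-α2 was higher at APOA2 -5.0 kb (71.4 and 80.2 against 33.4 and 56.1) and APOA2 +14.6 kb. The share of all regions without overlap is not given here.

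APOA4 -6.6 kb (chr11:116813440-116814522), inside the RNA gene LNC-RHL1, separated the lines. It had percentiles of 85.6, 93.8, 94.4 and 99.3 in Panc10.05 and no peak in the 4 BxPC3 lists. A single ASPC1 list, the first with sgNC, held it, at 0.712. At APOA1 itself, the site inside the gene at 0.5 kb (chr11:116836017-116836632) had percentiles of 46.9, 74.3, 31.2 and 60.7 in Panc10.05 and 5.45 in 1 BxPC3 list. In ASPC1 it was at 15.9 and 24.7 with sgNC, at 26.0 in 1 list with sgP1 and at 34.9 in 1 list with sgP2. APOA1 +27.1 kb (chr11:116864079-116865075), inside SIK3, was in the 4 Panc10.05 lists at 80.2 to 95.2 and with P1-α2 in BxPC3 at 88.8 and 89.2. APOA5, an activator of lipoprotein lipase, had 1 site nearest to it, APOA5 -6.4 kb (chr11:116782808-116783211), inside ZPR1. It was at 39.0 and 49.7 in BxPC3 with P1-α2 and at 33 in 1 Panc10.05 list with P2-α8.

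The site at the APOA4 promoter, APOA4 +0.3 kb (chr11:116823322-116823947), was weak in most of the lists that held it. Peaks touched the promoter window shown above in 6 lists, each of which touched 3.61% to 12.5% of all promoter windows. Percentiles were 11.4 in 1 Panc10.05 list with P2-α8, 30.5 and 1.33 in BxPC3 with P1-α2, 9.87 in 1 list with sgNC, and 73.2 and 49.9 with sgP1. The summits lay 145 to 496 bp before the start, and the core AAAGTCCA begins at -134. A further peak of the site, at 0.781 in a list with sgP2, did not reach the window. In ASPC1 the site was thus in both lists with sgP1 and in 1 of 2 lists of each other guide.

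APOA2 (chr1:161222292-161223628), the second most abundant protein of high density lipoprotein, had 9 sites, and 8 other protein-coding genes lie within 50 kb of it. Panc10.05 had 4 and 4 peaks with P1-α2 and 4 and 3 with P2-α8. BxPC3 had 4 and 5 with P1-α2 and 0 and 1 with P2-α8. The highest site, APOA2 +14.6 kb (chr1:161237855-161238665), touched the promoter of NR1I3, the nuclear receptor CAR of drug metabolism, and its median summit was 58 bp from that gene. Its fold was 74.3 and 95.0 in Panc10.05 with P1-α2 and 40.8 and 38 with P2-α8, at percentiles 99.5, 99.6, 98.3 and 98.4. In BxPC3 it stood at 98.9 and 98.2 with P1-α2 and at 63.2 in 1 of the lists with P2-α8. No ASPC1 list held it.

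The site closest to the APOA2 start, APOA2 +0.8 kb (chr1:161224149-161224670), was 780 bp before it and was the only site at the 6 loci in both Panc10.05 lists with P1-α2 and neither with P2-α8. Its percentiles were 48.8 and 58.9 there, and 79.8 in 1 BxPC3 list with P1-α2. It made 1 of 28 sites in the Panc10.05 lists (3.57%), against 3.64% of the 49247 merged regions of those lists. In the other direction, APOM +4.0 kb (chr6:31662038-31662443), inside GPANK1, was in both lists with P2-α8, at 18.9 and 41.6, and in neither with P1-α2, again 1 of 28 against 10.9% of all regions. Held to equal list length, no site was specific to P2-α8. With a reciprocal overlap of 50%, or with summits within 100 bp, 2 sites were specific to P2-α8. The shares of all regions under these alternatives are not given here. All 4 Panc10.05 lists shared 17 of the 28 sites (60.7%), and 38% of all regions were shared in this way.

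In BxPC3, 10 of 28 sites (35.7%) were in both lists with P1-α2 and neither with P2-α8, against 28.2% of the 47225 merged regions. They lay at the chromosome 11 cluster (APOA5 -6.4 kb, APOA4 +0.3 kb, APOC3 -3.0 kb, APOC3 -0.1 kb and APOA1 +27.1 kb), at APOA2 (-5.0 kb and +37.5 kb), and at APOB, MTTP and APOM with 1 site each. No site was specific to P2-α8, against 0.129% of regions. At equal list length 3 sites were specific to P1-α2, and the share of all regions at that length is not given here. The 3 sites in all 4 BxPC3 lists were APOA4 -12.1 kb, APOA1 +1.3 kb and APOA1 +5.5 kb.

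APOB (chr2:21001429-21044073) had 2 sites and no other protein-coding gene within 50 kb. The site inside the gene (chr2:21042947-21043394) had its median summit 918 bp from the higher-coordinate end of the span. It was at percentiles 22.3 and 45.3 in Panc10.05 with P1-α2 and at 40.4 and 25.3 with P2-α8. In BxPC3 it was at 83.3 and 65.1 with P1-α2 and had no peak with P2-α8. APOB +26.5 kb (chr2:21070348-21070731) was found in BxPC3 alone, at 68.7 and 74.1 with P1-α2 and at 45.9 in 1 list with P2-α8. ASPC1 had no peak at APOB in any list.

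MTTP (chr4:99564130-99623997) had 4 sites, all with peaks in BxPC3 alone. BxPC3 had 3 and 3 peaks with P1-α2 and 1 and 1 with P2-α8. MTTP inside 9.0 kb (chr4:99572887-99573309) lay 1701 bp or more before the inner start whose promoter is shown above. Its percentiles were 82.7 and 25.2 with P1-α2 and 71.7 in 1 list with P2-α8. MTTP -1.2 kb (chr4:99562567-99563226), at least 1180 bp before the outer start and inside TRMT10A, was at 3.67 and 30.8 with P1-α2. MTTP inside 21.6 kb (chr4:99585526-99585860) was at 18 in 1 list with P1-α2 and 43.2 in 1 with P2-α8, and MTTP inside 23.4 kb (chr4:99587352-99587743) was at 47.2 in 1 list with P1-α2. Peaks at MTTP were thus in 4 of 4 BxPC3 lists, but no single site was in more than 3.

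APOH (chr17:66212033-66229415), a plasma glycoprotein that binds anionic phospholipid, had 2 sites, both in BxPC3 alone. APOH +46.4 kb (chr17:66275672-66276000) was closer to PRKCA than to other protein-coding genes and stood at 37.9 and 18.7 with P1-α2 and at 48.6 in 1 list with P2-α8. APOH +6.1 kb (chr17:66235311-66235575) was in a single list with P1-α2, at 2.41. No peak touched the APOH promoter.

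APOM (chr6:31652404-31658210), the carrier of sphingosine 1-phosphate on high density lipoprotein, had 9 sites and 11 other protein-coding genes within 50 kb. Panc10.05 had 5 and 7 peaks there with P1-α2 and 7 and 6 with P2-α8. BxPC3 had 1 and 2 with P1-α2 and 0 and 0 with P2-α8. ASPC1 had 4 and 4 with sgNC, 3 and 5 with sgP1, and 4 and 4 with sgP2. APOM was the locus with the most ASPC1 peaks, and 4 of the 10 ASPC1 sites lay there.

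The site on the APOM promoter, APOM inside 3.3 kb (chr6:31655532-31656060), was in the 4 Panc10.05 lists and no other. Its percentiles were 1.51 and 8.15 with P1-α2 and 49.0 and 58.3 with P2-α8, so the isoforms did not overlap in rank. Fold, which is not comparable between lists, was 6.23 and 8.12 with P1-α2 and 12.1 and 12.7 with P2-α8. Ranks from lists of different length cannot show whether binding changed. The summits lay 125 to 158 bp before the start, around the 30 bases shown above. Peaks of the 4 Panc10.05 lists touched 6.30% to 15.3% of all promoter windows. APOM +7.3 kb (chr6:31664262-31666460), on the promoters of GPANK1 and CSNK2B, was in the 4 Panc10.05 lists at 47.5 to 83.2, in 1 BxPC3 list with P1-α2 at 9.59, and in the 6 ASPC1 pan lists. In ASPC1 it stood at 55.7 and 54.3 with sgNC, 38.5 and 37.9 with sgP1, and 62.5 and 39.1 with sgP2. This wide site merged 16 peaks of 11 lists. In ASPC1 the summits lay at 31665455 in the first sgP1 list and at 31665399 in the second sgP2 list. In the other ASPC1 pan lists they lay at 31666070 to 31666238, so these percentiles may rank different peaks. APOM +24.7 kb (chr6:31682603-31683318) was in ASPC1 alone, in 5 of 6 pan lists at 9.70 to 39.7. The −log10 q of these peaks was 3.79 to 9.34. Only the peak of the first sgNC list passed the limit of about 8 of the Panc10.05 and BxPC3 lists. Absence of this site from those lists therefore cannot be read as a difference between lines. APOM +32.3 kb (chr6:31690152-31690760), inside ABHD16A, was at 42.1, 36.5, 68.4 and 84.2 in Panc10.05 and in 5 of 6 ASPC1 pan lists at 36.9 to 59.4. The highest site by mean percentile was APOM -38.0 kb (chr6:31613668-31615171), on the promoter of AIF1, at 63.5 to 91.4 in Panc10.05 and at 25.8 and 83.6 in BxPC3 with P1-α2.

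Between the induced lines, 5 of 40 sites (12.5%) were in the 4 Panc10.05 lists and no BxPC3 list, against 5.55% of the 68655 merged regions. They were APOA2 -48.8 kb (chr1:161173009-161173749, at PPOX and B4GALT3), APOA4 -6.6 kb, APOM inside 0.5 kb (chr6:31651701-31653200, on the promoter of BAG6), APOM inside 3.3 kb and APOM +32.3 kb. No site was in the 4 BxPC3 lists and no Panc10.05 list, against 2.09% of regions. At equal list length 3 sites were specific to Panc10.05, again without a share of all regions at that length.

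The counts of the ASPC1 guides overlapped at the loci. With the pan antibody the mean was 8 ± 2.83 peaks with sgNC, 7 ± 1.41 with sgP1 and 6 ± 0 with sgP2 (SD, n = 2 lists each). The differences were -1 for sgP1 against sgNC, -2.00 for sgP2 against sgNC and 1.00 for sgP1 against sgP2, each with an exact permutation p of 1.00. Both guides are set against the same sgNC lists. Against sgNC, no site was specific to sgP1 (0.409% of all regions), and none was in both sgNC lists and neither sgP1 list (8.97%). The same held for sgP2, with 0 sites gained against 0.407% of regions and 0 lost against 7.20%. Between sgP1 and sgP2 no site was specific to either, against 2.75% and 4.32% of regions. At equal list length, 3 sites were specific to sgP1 against sgP2 and 1 to sgP1 against sgNC, and at −log10 q of at least 8 it was 1 in each case. With summits within 100 bp as the rule, 1 site was specific to sgNC against sgP1 and 1 to sgNC against sgP2. By that rule 1 site was also specific to sgP1 against sgNC. With 10 sites these counts cannot be told apart from the background shares, which are given for the full lists only. The first sgNC list decided the direction: without it sgP1 stood 1.00 peak above sgNC and sgP2 level with it.

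The P1 antibody found no peak at the loci, with sgNC or with sgP2. Against the pan antibody the difference was -8.00 peaks with sgNC and -6.00 with sgP2 (exact permutation p = 0.333 each, adjusted p = 0.743, n = 2 lists each). The P1 antibody lists were shorter, at 697 and 260 peaks with sgNC and 5200 and 3916 with sgP2. Cut to these lengths by fold, the pan lists had no peak at the loci either: 0 and 0 at 260 peaks with sgNC, and 0 and 0 at 3916 with sgP2. Within 100 kb in place of 50 kb, the P1 antibody had 3 and 2 peaks with sgP2 and 0 and 0 with sgNC.

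Counted by gene, 7 of the 9 had a peak within 50 kb in both lists of Panc10.05 with P1-α2, against 74.5% of protein-coding genes. It was 7 of 9 with P2-α8 as well, against 79.5%. MTTP and APOH were the exceptions in both groups. BxPC3 with P1-α2 had 9 of 9 against 76.6%. With P2-α8 it had 5 of 9, the chromosome 11 genes and MTTP, against 45.4%. In ASPC1 with the pan antibody the count was 5 of 9, the chromosome 11 genes and APOM, with each guide, against 58.5% with sgNC, 50.6% with sgP1 and 52.0% with sgP2. The P1 antibody had 0 of 9 against 2.31% with sgNC and 23.7% with sgP2. By gene, most of these shares stand near the background. The 4 genes of the cluster share their peaks and count as 1 locus. Counted by locus, 4 of 6 had a peak in both lists of each Panc10.05 group and 6 of 6 in BxPC3 with P1-α2. It was 2 of 6 in BxPC3 with P2-α8 and with each ASPC1 guide under the pan antibody.

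**Figure D4:**
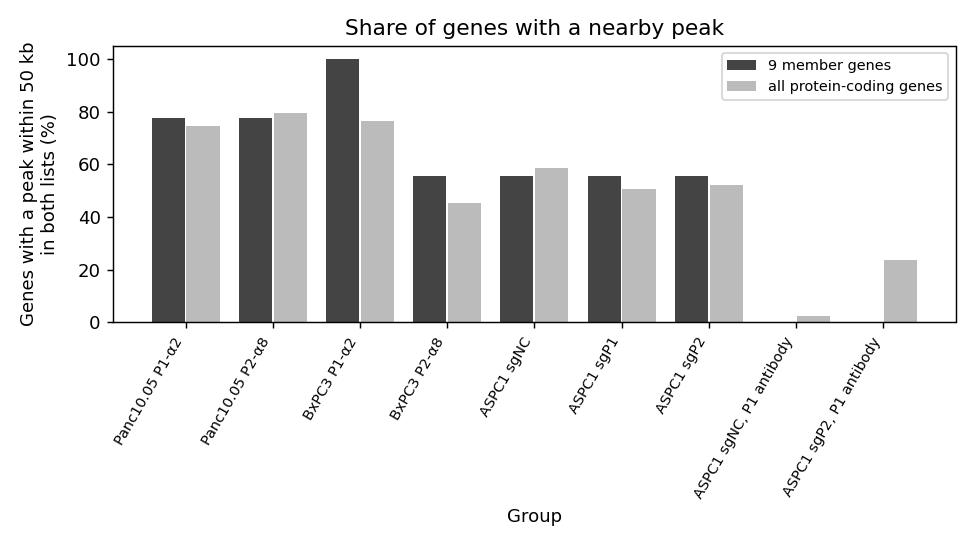
Share of the 9 genes (dark bars) and of 20037 protein-coding genes (light bars) with a peak within 50 kb in both lists of a group. The dark bar is above the light bar by the most in BxPC3 with P1-α2, 9 of 9 genes against 76.6%, and both P1 antibody groups have 0 of 9.

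By rank, the comparison with other genes depended on how the shared cluster was counted. The median over the 9 genes of the highest percentile within 50 kb was 99.5 and 99.6 in Panc10.05 with P1-α2, 98.3 and 98.4 with P2-α8, and 98.9 and 98.2 in BxPC3 with P1-α2. Over all protein-coding genes it was 62.4 to 75.0 in these lists. In BxPC3 with P2-α8 it was 43.2 and 71.7, against 7.56 and 19.3. In ASPC1 it was 54.2 and 24.7 with sgNC against 58.1 and 33.3, 38.5 and 49.9 with sgP1 against 29.7 and 16.5, and 34.9 and 0.781 with sgP2 against 20.7 and 35.7. Of the 9 values, 4 come from the shared cluster, so that in the Panc10.05 lists and in BxPC3 with P1-α2 the median is the value of APOA2, from the peak at the NR1I3 promoter. Counted once per locus, with 0 where a list had no peak, the median over the 6 loci was 42.9, 61.3, 60.3 and 58.4 in Panc10.05, below that over all protein-coding genes in each of the 4 lists (62.4, 71.1, 75.0 and 70.1). In BxPC3 it was 83.0 and 78.8 with P1-α2, against 73.1 and 65.1, and 0 and 55.9 with P2-α8. In the 6 ASPC1 pan lists it was at most 23.1 and below that over all protein-coding genes. APOB, MTTP and APOH reached no more than 83.3 in any list.

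The mean over the 6 loci of the highest percentile (0 where a list had no peak) was 47.5 and 53.7 in Panc10.05 with P1-α2 and 53.1 and 52.5 with P2-α8. It was 71.4 and 70.3 in BxPC3 with P1-α2 and 23.3 and 54.7 with P2-α8. In the ASPC1 pan lists it ran from 10.7 to 26.0. Of 18670 protein-coding genes compared, those over 1 Mb away whose own highest percentile followed this mean most closely across the 18 lists were PFKFB3 (Spearman rho 0.970), LOC124904579 (0.969), KTN1 (0.966), DLG2 (0.965) and P2RX7 (0.965). The lists share cell lines and differ in length, so these are descriptions and carry no p.

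Other genes of lipoprotein metabolism were counted by the same rule. Of 66 genes, 60 had a peak in both lists of Panc10.05 with P1-α2, 60 with P2-α8, 54 of BxPC3 with P1-α2 and 37 with P2-α8. In ASPC1 with the pan antibody it was 50 with sgNC, 42 with sgP1 and 43 with sgP2, and with the P1 antibody 7 with sgNC and 22 with sgP2. As shares these were 90.9%, 90.9%, 81.8%, 56.1%, 75.8%, 63.6%, 65.2%, 10.6% and 33.3%, in the same order, each above the share of all protein-coding genes given above. Among 13 genes of particle assembly and secretion, 13 and 13 were counted in Panc10.05, 11 and 10 in BxPC3, and 11 with each ASPC1 guide. MIA2, which helps export large cargo from the endoplasmic reticulum, and CIDEB, a lipid droplet protein that aids lipidation of very low density lipoprotein, had a peak in both lists of all 9 groups.

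Among 13 receptors and uptake genes, 13 and 13 were counted in Panc10.05, and in BxPC3 12 with P1-α2 and 8 with P2-α8. ASPC1 had 11 with sgNC, 6 with sgP1 and 7 with sgP2. ABCA1, which exports cholesterol to APOA1, had its highest peak at percentiles 12.2 and 9.43 with sgNC and no peak within 50 kb with sgP1 or sgP2. In BxPC3 with P1-α2 it stood at 99 and 99.1. NPC1L1, the intestinal cholesterol importer, had a peak in both lists of all 9 groups, at 98.7 and 98.1 with sgNC. Of 14 other apolipoproteins, 13 and 13 were counted in Panc10.05, 9 with P1-α2 and 7 with P2-α8 in BxPC3, and 9, 9 and 10 with sgNC, sgP1 and sgP2. Of 11 genes of lipid transfer and remodelling it was 8 and 9, 7 and 3, and 7, 6 and 5. Of 15 regulators it was 13 and 12, 15 and 9, and 12, 10 and 10. Unlike the 66 genes together, these lists were not above the share of all protein-coding genes in every group. Lipid transfer and remodelling stood at 72.7% against 74.5% in Panc10.05 with P1-α2, at 63.6% against 76.6% and 27.3% against 45.4% in BxPC3, and at 45.5% against 52.0% with sgP2. Receptors stood at 46.2% against 50.6% with sgP1, and other apolipoproteins at 64.3% against 76.6% in BxPC3 with P1-α2. Several of these genes are neighbours and share peaks, and the counts carry no test.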

How the data were processed

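HNF4α ChIP-seq of 18 immunoprecipitated libraries was used; the 14 input libraries were not used here. Each deposited file is the peak list of 1 library, so peaks were not called on pooled replicates. Per the submitters' processing notes, the tools included Bowtie2 2.2.9 and MACS2 2.2.7 and the builds hg38 and mm10, with no role stated. In the deposited lists the authors give fold enrichment as a ratio, p and q as −log10 values, an integer score, and the summit offset. Read depth is not given in the sources used here.

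Groups followed the labelled line, genotype and antibody. The titles of the BxPC3 P2-α8 libraries read P1-a8; the genotype label was used. Summits were set against RefSeq gene spans (GRCh38.p14). As a check of the build, 1.58% to 6.54% of summits lay in promoter windows, against at most 1.00% after a 100 kb shift. The table gives spans without exons, so exon and intron are not stated. A genome sequence was not used here, so motifs were searched in promoter windows and not in peaks.

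Counts per list were compared by two-sided exact permutation tests, Benjamini-Hochberg adjusted over 10 comparisons (Python 3.11.15, pandas 2.3.3, NumPy 2.4.6). Window counting gave the same number of genes as bedtools on a deposited list. Merging and the rule for specific sites were tested on lists with planted peaks, and the permutation test on a small set of made-up values. The rule for naming sites took those of highest mean percentile, nearest to a gene start, or specific to a group, at each locus. Some sites, such as APOA4 -12.1 kb and MTTP inside 23.4 kb, were named outside this rule. Alternatives were windows of 10 and 100 kb, −log10 q of at least 8 or 20, equal list length, scaling per 1000 peaks, peak overlap in place of summits, other overlap rules, left-out replicates and a replicate block. Fold and percentile only rank peaks within a list. The genes and lists were chosen with earlier results of these data known.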

Additional observations from a re-analysis of the deposited data

How the results depend on the processing

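No comparison had an exact permutation p under 0.05, as reported or under an alternative, so what follows concerns direction and size. As reported, most could not: the smallest possible p was 0.333 with 2 lists against 2. It was 0.0556 for P1-α2 minus P2-α8 over both lines. Only Panc10.05 minus BxPC3, with a smallest possible p of 0.0286, could have gone under 0.05. For the 9 differences in peak number other than 0, 107 alternatives kept the direction, 8 turned it and 10 brought it to 0. The difference in BxPC3 (17.0) ran from 3.50 at equal list length to 24.5 with a window of 100 kb, and from 15.5 to 18.5 with a replicate left out. In Panc10.05 P1-α2 minus P2-α8 (-2.00) became 0.0861 per 1000 peaks and 1.00 at equal length, and ran from -4.00 to 0 with a replicate left out. In ASPC1, sgP1 minus sgNC (-1) became 0.152 per 1000 peaks, 2.50 at equal length and 0 at −log10 q of at least 20, and ran from -3.00 to 1.00 with a replicate left out. For sgP2 minus sgNC (-2.00) the values were 0.0372 per 1000 peaks and 0.500 at equal length, and -4.00 to 0 with a replicate left out. For sgP1 minus sgP2 (1.00) they were 0 at 10 kb, 0 at 100 kb and -0.500 at −log10 q of at least 8, and 0 to 2.00 with a replicate left out. P1 antibody minus pan became 0 at equal length with sgNC, and 0 at equal length and at −log10 q of at least 20 with sgP2. For the P1 antibody, sgP2 minus sgNC stayed at 0 in 12 alternatives and was 2.50 at 100 kb. With a replicate left out, P1-α2 minus P2-α8 over both lines (7.50) ran from 4.25 to 10.9 and Panc10.05 minus BxPC3 (7) from 3.67 to 10.0. Equal length and higher limits leave fewer peaks; the cause of the other changes was not tested. Same-numbered replicates did not deviate together (correlations from -0.0674 to 0.0680 over 6 comparisons of groups). Keeping the number as a replicate block changed no difference. The exact permutation p-values were then 0.500 in BxPC3, the smallest possible there, and 0.375 for P1-α2 minus P2-α8 over both lines. Specific sites and gene counts moved by over 1.5 times in 21 alternatives and kept within that in 94. Within 10 kb, 3, 3 and 2 genes were counted with sgNC, sgP1 and sgP2, and 3 in BxPC3 with P2-α8. The second list of BxPC3 with P2-α8 alone had peaks at 8 of the 9 genes, against 5 in both. At −log10 q of at least 8, sgNC and sgP2 each kept 1 gene and sgP1 kept 4. The shares of all protein-coding genes under these alternatives are not given here. The number of peaks per list, and the unknown depth behind it, limits every count of absent peaks.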
